A study of Mus musculus with 21 samples.

Results

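Germinal centre B cells make DNA at a high rate, and the genes that supply its precursors were examined here as 1 module of 38 genes for nucleotide synthesis and the one-carbon metabolism that feeds it. The members were chosen by symbol and were found as 38 of the 47729 gene identifiers in each mRNA library, 1 identifier per symbol. They were divided by role into 13 purine genes, 11 pyrimidine genes, 5 genes that serve deoxynucleotides and phosphate transfer in both (Rrm1, Rrm2, Dck, Nme1 and Nme2), and 9 folate and serine genes. In all, 37 members passed the filter on low counts. Nme2 did not, with 1 to 11 counts per library and 73 over the 16 libraries.

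As background, purine rings are built stepwise on phosphoribosyl pyrophosphate until inosine monophosphate is reached, whereas a pyrimidine ring is closed first and then joined to that sugar. Serine donates a carbon to folate, and folate-bound carbons enter the purine ring and turn deoxyuridylate into thymidylate, which is why folate genes belong with nucleotide genes in dividing lymphocytes. Folate reactions run in parallel in the cytosol (Shmt1, Mthfd1) and in mitochondria (Shmt2, Mthfd2, Mthfd1l), and salvage enzymes such as Hprt, Dck and Tk1 recycle preformed bases and nucleosides.

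The mRNA libraries came from splenic B cells of the light zone (LZ), where germinal centre B cells are selected, and of the dark zone (DZ), where they divide and mutate their antibody genes. Mice of the C57BL/6 strain were immunised with NP-KLH in alum 7 days before sorting, and each pool held cells of 3 to 5 animals of 1 genotype and 1 sex. Splenocytes were depleted of cells stained for IgD, CD3e, Gr1 or Ter119 before the sort. Control mice were CD79a+/+Ptbp1fl/fl, and conditional knockout (cKO) mice were CD79acre/+Ptbp1fl/fl, in which Cre from the Cd79a locus acts in the B lineage from early development. Both genotypes therefore carried floxed Ptbp1, which encodes an RNA-binding regulator of splicing, and since cKO animals alone carried the Cre allele, its effect and that of PTBP1 loss cannot be told apart. Each zone of each genotype had 4 libraries, which makes 4 groups. The replicate number was the sort day, with days 1 and 2 male and days 3 and 4 female, and each of the 8 pools gave 1 LZ and 1 DZ library. A second data set, iCLIP of PTBP1 in 5 libraries of splenic B cells from female C57BL/6 mice, stimulated with lipopolysaccharide (LPS) for 48 h, gave positions where PTBP1 was crosslinked to RNA.

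Libraries held 26823882 to 34240096 gene counts, and levels below are CPM, gene counts scaled to each library's TMM-adjusted total, listed in the order of sort days 1 to 4. Tested members had at least 202 counts in every library. Ptbp1 itself lay between 353 and 419.8 CPM in LZ control and between 82.5 and 121 in LZ cKO libraries, and between 416 and 486 and between 92.1 and 114 CPM in the DZ groups, in the direction of the labels. Cd79a, the gene that holds the Cre allele, measured 2342 to 3025 CPM in LZ control and 1112 to 1623 in LZ cKO libraries. In the DZ groups it measured 2024 to 2535 CPM in control and 830 to 1087 in cKO. All 10 light zone markers were called higher in LZ in both genotypes; all 10 dark zone markers had negative log2 fold changes, 7 of them called in each genotype. In sorted bulk samples, fewer cells of a type and less RNA per cell cannot be told apart.

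Promoter stretches are shown for the members with a CACGTG E-box, a motif bound by MYC family proteins, which are known regulators of nucleotide genes. Among 5 motifs searched on both strands from 250 bases before to 50 bases after RefSeq starts (GRCm38.p6), the E-box was found in 6 of the 36 members with an entry (16.7%) and in 8.09% of all 27025 genes. The 5 stretches that follow lie upstream of the gene, except that the end of the Dtymk stretch reaches into its span; each has 60 bases, 5′ to 3′ on the gene's strand, with the motif in capitals. Paics was the sixth, with its match inside the transcribed span of the neighbouring Ppat.
Atic, chr1:71557096-71557155, + strand: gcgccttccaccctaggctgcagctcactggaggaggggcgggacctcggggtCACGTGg
Dtymk, chr1:93802050-93802109, - strand: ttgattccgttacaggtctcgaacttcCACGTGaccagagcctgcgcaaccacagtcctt
Tyms, chr5:30073654-30073713, - strand: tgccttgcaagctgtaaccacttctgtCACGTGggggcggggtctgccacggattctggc
Nme1, chr11:93968273-93968332, - strand: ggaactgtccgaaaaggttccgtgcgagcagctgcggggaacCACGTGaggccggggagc
Impdh2, chr9:108560299-108560358, + strand: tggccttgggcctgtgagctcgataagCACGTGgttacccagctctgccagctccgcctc

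The other motifs were a CCAAT box (CCAAT) in 16 members (44.4%, against 41.1% of all genes), the NRF1 motif in 3 (8.33% against 5.19%), E2F motifs (TTTCGCGC, TTTGGCGC or TTTCCCGC) in 2 (5.56% against 2.12%) and the ATF4-type motif TGATGNAAN in 1 (2.78% against 4.5%). Matches describe the letters of these windows alone. Of the E-box members, Atic, Dtymk and Tyms recur below among the genes lower in cKO light zone cells once sort days were taken into account, and Nme1, Impdh2 and Paics do not.

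In light zone cells most members had lower values in cKO than in control mice, by a small amount per gene. The log2 fold change of cKO over control was negative for 35 of 37 members, against 47.5% of all 15789 genes tested, with a median of -0.23 over members and 0.019 over all genes. No member passed edgeR's quasi-likelihood test (adjusted p under 0.05 over all genes tested), where 1.08% of all genes passed, and 12 of 37 had an unadjusted p under 0.05, against 13.4% of all genes. DESeq2 called 3 members and limma-voom 0, with the share of all genes not given here. With sort day as a block, which compares the genotypes within each day, 11 members were called lower and 0 higher, where 2.77% of all genes were called lower and 2.72% higher. The 11 were Atic among purine genes, Umps, Dtymk, Tyms and Dut among pyrimidine genes, and 6 of the 9 folate and serine genes. The blocked count was 3, 0, 8 and 3 when sort days 1, 2, 3 and 4 were left out in turn, so without day 2 no member was called. Values were lower on all 4 days for 23 of 37 members, against 15.2% of all genes. Median log2 fold changes were -0.20 for purine, -0.23 for pyrimidine, -0.23 for shared and -0.36 for folate and serine genes.

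**Figure D1:**
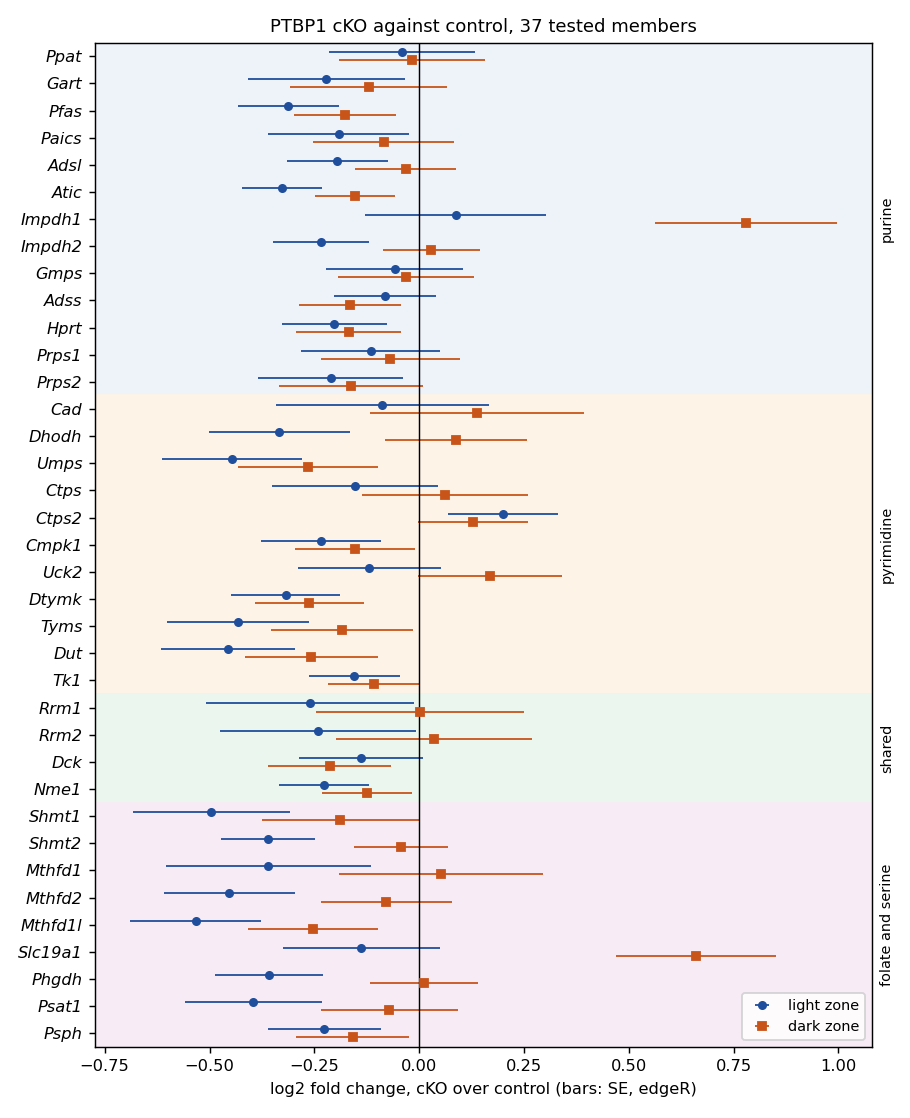
Log2 fold change of cKO over control (x axis) for the 37 tested members (y axis, shaded by branch), with circles for light zone, squares for dark zone and bars for the standard error from edgeR. In the light zone 35 of 37 points lie left of 0, with Mthfd1l lowest, whereas in the dark zone Impdh1 and Slc19a1 stand to the right.

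Among folate and serine genes, all 3 of mitochondrial folate metabolism were called lower in cKO light zone cells with the day block. Mthfd1l, which releases formate from mitochondrial folate, measured 82.6, 97.3, 114 and 84.7 CPM in control libraries and 55.0, 67.8, 86.6 and 52.5 in those of cKO mice. It was lower on all 4 days, although cKO day 3 reached above the 2 lowest controls, and its log2 fold change was -0.53 ± 0.16 (edgeR adjusted p = 0.124, or 0.0141 with the day block). Without LZ cKO replicate 3 the main edgeR fit called it, the 1 such case, with an adjusted p of 0.0382. Mthfd2, the mitochondrial methylene-folate dehydrogenase, measured 90.4, 85.4, 124 and 117 CPM in control and 66.7, 63.8, 85.4 and 88.6 in cKO. Each cKO value lay below the control of its day, with overlap between days at the low end of the controls, and the log2 fold change was -0.45 ± 0.16 (edgeR adjusted p = 0.199, 0.0141 with the block). Shmt2, which moves the serine carbon onto folate in mitochondria, measured 269, 248, 293 and 246 CPM in control and 196, 172, 249 and 206 in cKO. Only cKO day 3 reached the range of the controls, and the log2 fold change was -0.36 ± 0.11 (edgeR adjusted p = 0.15, 0.0134 with the block).

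The cytosolic counterpart Shmt1 measured 66.4, 52.5, 72.4 and 62.4 CPM in control and 31.1, 39.9, 62.7 and 46.2 in cKO light zone libraries. Day 1 showed the widest gap, cKO day 3 lay among the controls, and the log2 fold change was -0.50 ± 0.19 (edgeR adjusted p = 0.242, 0.0346 with the block). Mthfd1, the cytosolic trifunctional folate enzyme, had a log2 fold change of -0.36 ± 0.24 and was called in neither fit (edgeR adjusted p = 0.59, 0.252 with the block). Its cKO libraries ran from 59.1 on day 1 to 178 CPM on day 3, around a control range of 118 to 169 CPM.

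Among the 3 serine synthesis genes, Phgdh and Psat1 were called lower with the block. Phgdh, the first enzyme of serine synthesis from glycolysis, measured 203, 226, 242 and 240.2 CPM in control and 165, 155, 220.1 and 170.3 in cKO light zone libraries. Psat1, the second enzyme, measured 145, 131, 158 and 167 CPM in control and 102, 91.2, 148 and 116 in cKO. Both were lower on all 4 days with day 3 of the cKO inside the control range, and their log2 fold changes were -0.36 ± 0.13 and -0.40 ± 0.16 (edgeR adjusted p = 0.216 and 0.303, or 0.0347 and 0.0404 with the block). Psph, which completes the pathway, had -0.23 ± 0.13, and the folate carrier Slc19a1 had -0.14 ± 0.19, and neither was called.

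**Figure D2:**
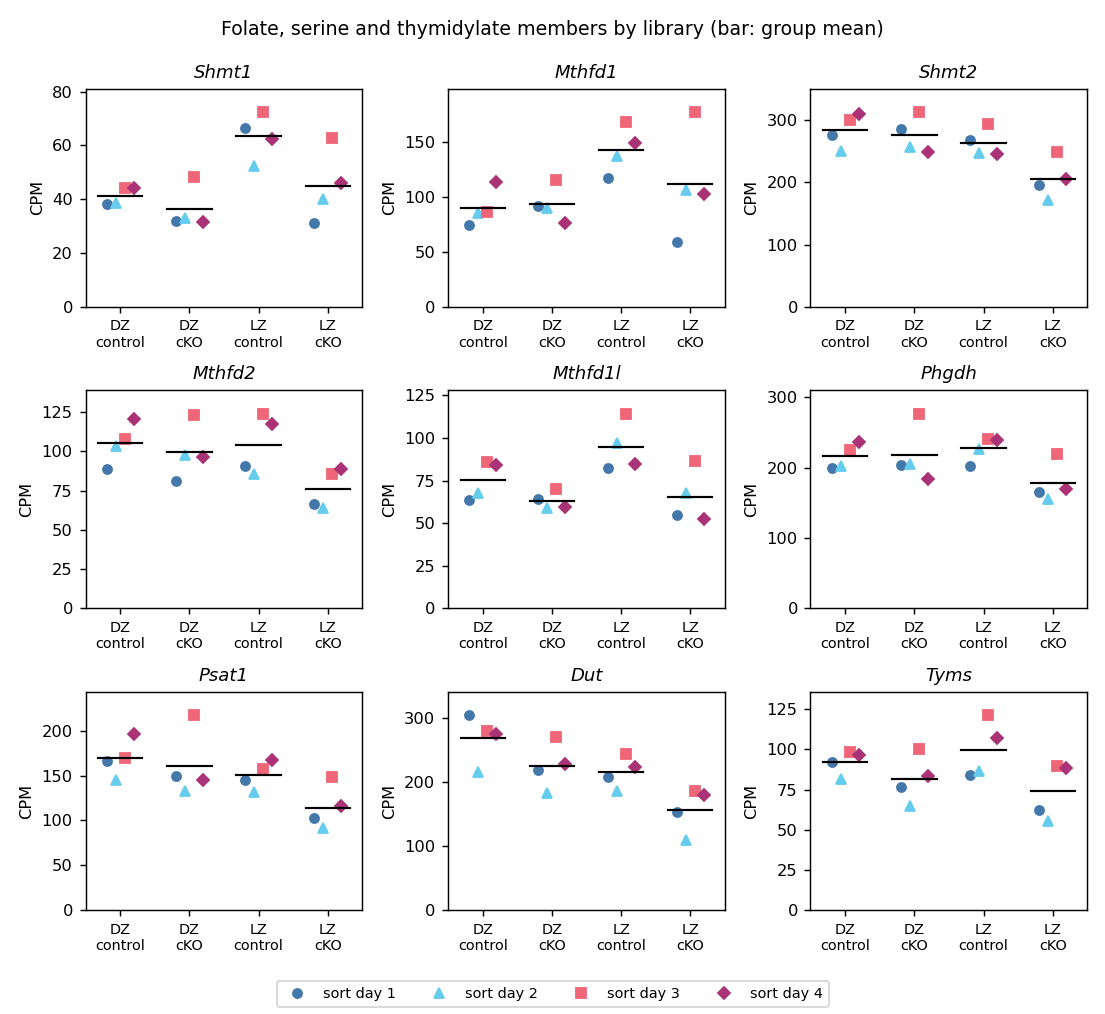
CPM (y axes, from 0) of 7 folate and serine members with Dut and Tyms in each of the 16 libraries, by group (x axes), with colour and shape for the sort day and a bar for the group mean. The LZ cKO means lie below the LZ control means in all 9 panels, and the day 3 square is the highest or second highest LZ cKO library in each.

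Pyrimidine members called with the block belonged to the thymidylate route, apart from Umps. Dut, which removes dUTP and yields the substrate of thymidylate synthase, measured 208, 186, 244 and 224 CPM in control and 153, 109.9, 185 and 180.1 in cKO light zone libraries. The groups did not overlap, as was so in the lower direction for 3 members (Dut, Atic and Nme1) and for 4.12% of all genes, and the log2 fold change was -0.46 ± 0.16 (edgeR adjusted p = 0.205, 0.00697 with the block). Tyms, thymidylate synthase itself, measured 84.2, 86.5, 121 and 107 CPM in control and 62.1, 55.5, 89.4 and 88.5 in cKO. Its cKO libraries of days 3 and 4 lay above the lowest controls, yet each was below the control of its own day, and the log2 fold change was -0.43 ± 0.17 (edgeR adjusted p = 0.271, 0.0137 with the block). Dtymk, the kinase that acts on thymidylate next, measured 132, 96.1, 129 and 119 CPM in control and 95.0, 77.7, 105 and 105 in cKO. Day 2 was lowest in both genotypes, cKO days 3 and 4 lay above the lowest control, and the log2 fold change was -0.32 ± 0.13 (edgeR adjusted p = 0.297, 0.0413 with the block).

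Umps, which closes de novo pyrimidine synthesis by making uridine monophosphate, measured 105, 101, 124 and 127 CPM in control and 68.5, 71.8, 109 and 87.2 in cKO light zone libraries. It was lower on all 4 days with day 3 of the cKO above the 2 lowest controls, and the log2 fold change was -0.45 ± 0.17 (edgeR adjusted p = 0.238, 0.0107 with the block). The earlier de novo genes were not called, with -0.088 ± 0.25 for Cad, the enzyme of the first steps, and -0.33 ± 0.17 for Dhodh, the mitochondrial dehydrogenase. Ctps2, a CTP synthase, was 1 of the 2 members with a positive value (0.20 ± 0.13), while its paralogue Ctps had -0.15 ± 0.20. Values for Cmpk1, Uck2 and Tk1, which phosphorylate pyrimidine nucleosides or nucleotides, were -0.23, -0.12 and -0.15.

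Of the 13 purine genes, Atic alone was called, with the block. Atic, which performs the closing steps of the purine ring with a folate-bound carbon, measured 50.0, 45.8, 51.9 and 44.3 CPM in control and 40.7, 35.0, 39.4 and 37.9 in cKO light zone libraries. The groups did not overlap, and the log2 fold change was -0.33 ± 0.095 (edgeR adjusted p = 0.123, 0.0247 with the block). The other ring-building genes had log2 fold changes of -0.041 for Ppat, the committed step, -0.22 for Gart, -0.31 for Pfas, -0.19 for Paics and -0.20 for Adsl. Guanine-branch values were 0.087 for Impdh1, -0.23 for Impdh2 and -0.059 for Gmps, and the adenine-branch gene Adss had -0.082. The phosphoribosyl pyrophosphate synthetases Prps1 and Prps2 had -0.12 and -0.21, and the salvage gene Hprt had -0.20; none of these 12 was called in either fit.

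None of the 4 tested shared genes was called in light zone cells. Rrm1, the large subunit of ribonucleotide reductase, measured 389.9, 452, 616 and 587 CPM in control and 256, 301, 623 and 527 in cKO light zone libraries. The 2 male cKO libraries were below all controls, while day 3 was above them all, and the log2 fold change of -0.26 ± 0.25 was not called (edgeR adjusted p = 0.744, 0.284 with the block). Rrm2, the small subunit, measured 482, 446, 616 and 644 CPM in control and 345, 280.4, 614 and 611 in cKO, with a log2 fold change of -0.24 ± 0.23. Both subunits were near the control values of the same day on day 3 and lowest in the male cKO libraries. Dck had -0.14 and Nme1, a nucleoside diphosphate kinase, -0.23. Nme1 and Nme2 are near-identical neighbours on chromosome 11, so how the authors' counting shared reads between them is uncertain. Ppat and Paics overlap head to head by 277 bases (chr5:76951302-76951578), and without a stated strand setting reads there cannot be assigned.

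Of the other gene lists, DNA replication genes had lower values as a group in cKO light zone cells, and most marker sums overlapped between genotypes. All 37 genes of a DNA replication and G1/S list had a negative log2 fold change in cKO light zone cells, with a median of -0.33, and their summed level was 6988 to 9231 CPM in control and 5026 to 8162 CPM in cKO libraries. The main edgeR fit called 0 of them and the blocked fit 15 lower. Dark zone markers, several of them mitotic genes, summed to 1456 to 2066 CPM in control and 1268 to 2194 CPM in cKO. Summed markers of other cells were 59.1 to 89.6 against 122 to 167 CPM for 8 dendritic cell genes, 24.9 to 385 against 80.7 to 488 CPM for 12 macrophage genes, 295 to 518 against 175 to 468 CPM for 10 T cell genes and 1738 to 2192 against 2012 to 3115 CPM for 8 naive B cell genes, and no gene of these lists was at 0 across either group. The dendritic cell sums did not overlap, and the others did. Sums for NK cell, neutrophil, erythroid and plasma cell genes overlapped between genotypes as well. Of the 8 dendritic cell genes, 5 had a positive and 3 a negative log2 fold change, and Flt3 was the 1 called (1.14 ± 0.11, edgeR adjusted p = 8.08e-05). The main fit also called Gpr183 of the naive B cell genes, higher in cKO (edgeR adjusted p = 0.0105). Itga2b of the platelet genes was called higher too (edgeR adjusted p = 0.00458). Platelet sums were 0.0325 to 1.23 CPM in control and 0.985 to 3.63 in cKO. Germinal centre B cell genes summed to 2537 to 3095 CPM in control and 2118 to 2980 in cKO. Of the 8 tested, 6 had a negative and 2 a positive log2 fold change. Basp1 was the 1 called, lower in cKO (-0.74 ± 0.17, edgeR adjusted p = 0.0498). With the day block, 1 macrophage, 1 dendritic cell, 1 neutrophil, 1 platelet, 1 B cell and 3 naive B cell genes were called higher. In the same fit 1 T cell gene and 1 germinal centre B cell gene, Basp1, were called lower. The part of all these in the result was not tested.

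In dark zone cells the 2 members with the largest log2 fold changes, Impdh1 and Slc19a1, had higher values in cKO than in control mice. The other 35 had log2 fold changes from -0.27 to 0.17. No member passed the main edgeR test, where 0.627% of all genes did, 25 of 37 log2 fold changes were negative against 48.3% of all genes, and the median was -0.078 against 0.011 for all genes. Unadjusted p was under 0.05 for 2 of 37 members, a lower share than the 11.4% of all genes. This count does not set the module apart. DESeq2 called 2 members and limma-voom 0, again without the share of all genes. Values were lower on all 4 days for 4 members (10.3% of all genes) and higher on all 4 for 4 (12.8%). Impdh1, a rate-limiting enzyme of guanine nucleotide synthesis, measured 19.9, 27.5, 28.0 and 15.3 CPM in control and 39.7, 40.3, 47.1 and 28.8 in cKO dark zone libraries. Every cKO library was above every control, as was so in the higher direction for 2 members and 3.25% of all genes. The log2 fold change was 0.78 ± 0.22, with an edgeR adjusted p of 0.129 in the main fit and 0.00177 with the day block, where 1.9% of all genes were called higher and Impdh1 was the 1 member called. Its paralogue Impdh2 had 0.029 ± 0.12.

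Slc19a1, the reduced folate carrier of the plasma membrane, was the other member without overlap. It measured 6.32, 9.77, 8.40 and 9.42 CPM in control and 10.2, 14.6, 15.1 and 13.7 in cKO dark zone libraries. The cKO level was higher on all 4 days, with a log2 fold change of 0.66 ± 0.19, without reaching the threshold (edgeR adjusted p = 0.143, 0.0908 with the block). The largest pyrimidine and shared values were those of Umps (-0.27 ± 0.17) and Dck (-0.21 ± 0.15), neither called. Umps measured 125, 98.8, 134 and 137 CPM in control and 95.6, 77.0, 127 and 111 in cKO. It was lower on all 4 days with overlapping groups. Branch medians were -0.085 for purine, -0.11 for pyrimidine, -0.061 for shared and -0.071 for folate and serine genes. Summed macrophage markers were 15.8 to 400.4 CPM in control and 43.6 to 1249 CPM in cKO dark zone libraries, those of plasma cell genes 3524 to 9469 and 3001 to 13380 CPM, and those of dendritic cell genes 63.4 to 88.5 and 81.0 to 125 CPM. Naive B cell genes summed to 714 to 1001 CPM in control and 858 to 1376 in cKO, and NK cell genes to 11.5 to 147 and 71.9 to 209 CPM. The main fit called no gene of these 5 lists, and the day block called 4 of 12 macrophage, 4 of 8 naive B cell, 2 of 8 NK cell, 1 of 8 plasma cell and 1 of 8 dendritic cell genes, all higher in cKO. Germinal centre B cell genes summed to 3187 to 3718 CPM in control and 3027 to 3425 in cKO. Of the 8 tested, 6 had a negative and 2 a positive log2 fold change. None was called in the main fit, and Fas and Basp1 were called lower with the day block. That block also called 2 of 10 light zone and 1 of 10 dark zone markers lower. The part of all these lists in the values was not tested.

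The difference between the LZ and DZ genotype effects was tested as an interaction, and no member was called, nor any of the 15789 genes (0%), under edgeR. At an unadjusted p under 0.05 it held 2 members, Slc19a1 (-0.80 ± 0.27) and Impdh1 (-0.69 ± 0.31), and 2.95% of all genes. DESeq2 and limma-voom also called 0 members. The LZ and DZ genotype effects are therefore given as values only. The member mean of the day differences in log2 CPM was -0.26 ± 0.14 in LZ and -0.044 ± 0.14 in DZ (SD over 4 sort days).

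Between the zones, 3 kinase or synthetase genes stood apart in both genotypes. Cmpk1, which turns CMP and UMP into diphosphates, measured 887, 777, 946 and 927 CPM in control DZ and 405, 386, 488 and 519.7 CPM in control LZ libraries. Every LZ library was below every DZ library, and the log2 fold change of LZ over DZ was -0.98 ± 0.14 (edgeR adjusted p = 0.000547). In cKO it measured 715, 694, 987 and 784 CPM in DZ and 345, 302, 429.5 and 452 in LZ, again without overlap, with a log2 fold change of -1.06 ± 0.14 (edgeR adjusted p = 0.000309).

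Dck, the salvage kinase for deoxycytidine and other deoxynucleosides, measured 825, 886, 945 and 1046 CPM in control DZ and 437, 471, 525 and 594 in control LZ libraries, and 729, 680.0, 989.5 and 793 against 391, 373, 522 and 557 CPM in cKO. The zones did not overlap in either genotype, with log2 fold changes of -0.87 ± 0.15 in control and -0.79 ± 0.15 in cKO (edgeR adjusted p = 0.00171 and 0.00319). Prps2, which makes the ribose donor of both pathways, measured 313, 317, 323 and 415 CPM in control DZ and 153, 135, 193 and 208 in control LZ libraries, and 312, 254, 358 and 299 against 111, 130.5, 190.2 and 163 CPM in cKO. It too was lower in LZ without overlap, with log2 fold changes of -0.99 ± 0.17 in control and -1.04 ± 0.17 in cKO (edgeR adjusted p = 0.00206 and 0.00143). Its paralogue Prps1 had -0.34 ± 0.17 and -0.39 ± 0.17 in the main fit, and was called only in cKO with the day block (-0.41, edgeR adjusted p = 0.04).

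**Figure D3:**
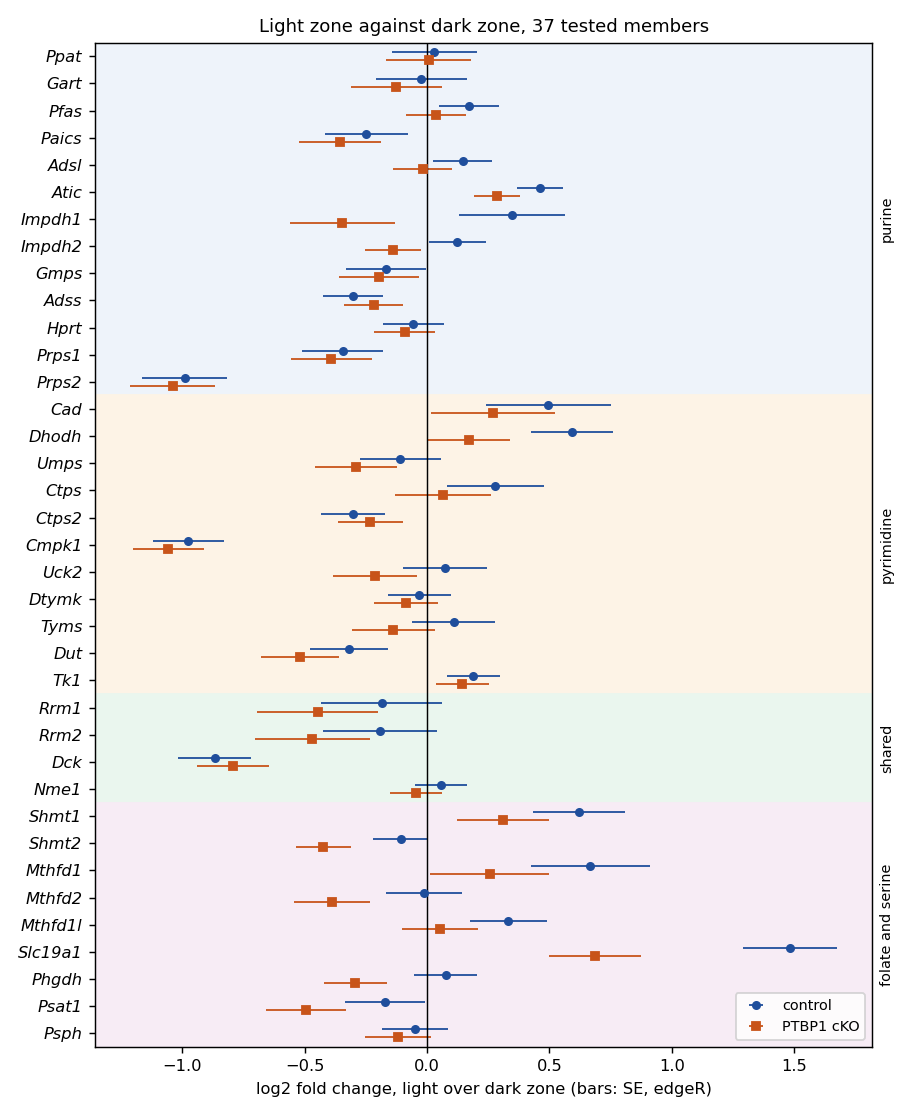
Log2 fold change of light over dark zone (x axis) for the 37 tested members (y axis, shaded by branch), with circles for control, squares for cKO and bars for the standard error from edgeR. Prps2, Cmpk1 and Dck lie between -1.06 and -0.79 in both genotypes, and Slc19a1 lies to the right in both.

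In control mice 6 of 37 members were called between the zones, where 7.49% of all genes were. The zones did not overlap for 6 members higher in LZ (7.49% of all genes) and 5 lower (6.83%). The 3 higher in LZ were Slc19a1, Dhodh and Atic. Slc19a1 measured 29.6, 22.4, 20.5 and 22.4 CPM in LZ, all above the DZ values given before, with a log2 fold change of 1.48 ± 0.19 (edgeR adjusted p = 0.000186), which was the largest value in the module. Dhodh measured 21.1, 20.9, 18.4 and 21.3 CPM in DZ and 35.2, 27.02, 30.4 and 30.7 in LZ. The zones did not overlap (0.59 ± 0.17, edgeR adjusted p = 0.0432), and with each pool as a block the adjusted p was 0.0756. The Dhodh call was also lost on leaving out any of the 8 control libraries, LZ cKO replicates 2 or 3 or DZ cKO replicate 2 (edgeR adjusted p = 0.0509 to 0.129). Atic measured 40.2, 31.6, 34.5 and 33.2 CPM in DZ, all below its LZ values (0.46 ± 0.095, edgeR adjusted p = 0.00685).

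In cKO mice 5 members were called, where 9.09% of all genes were. The zones did not overlap for 2 members higher in LZ (7.44% of all genes) and 4 lower (6.87%). Besides Cmpk1, Dck and Prps2 these were Slc19a1, higher in LZ with 20.5, 19.9, 28.6 and 17.2 CPM, and Shmt2, lower in LZ. Slc19a1 had 0.69 ± 0.19 (edgeR adjusted p = 0.0321). Shmt2 measured 286, 256, 313 and 249 CPM in DZ, without overlap with its LZ values (-0.43 ± 0.11, edgeR adjusted p = 0.0257), while in control mice it had -0.11 ± 0.11. Fitted on the 8 cKO libraries alone, neither was called (edgeR adjusted p = 0.0738 for Slc19a1 and 0.0981 for Shmt2). The Slc19a1 call was lost without LZ cKO replicates 1, 2 or 3 or DZ cKO replicates 1 or 4 (edgeR adjusted p = 0.0571 to 0.0952), and that of Shmt2 without LZ cKO replicates 1, 2 or 4 or DZ cKO replicates 1 or 3 (edgeR adjusted p = 0.0502 to 0.0969). The zone and genotype comparisons share libraries, so their values are set side by side and not combined.

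**Figure D4:**
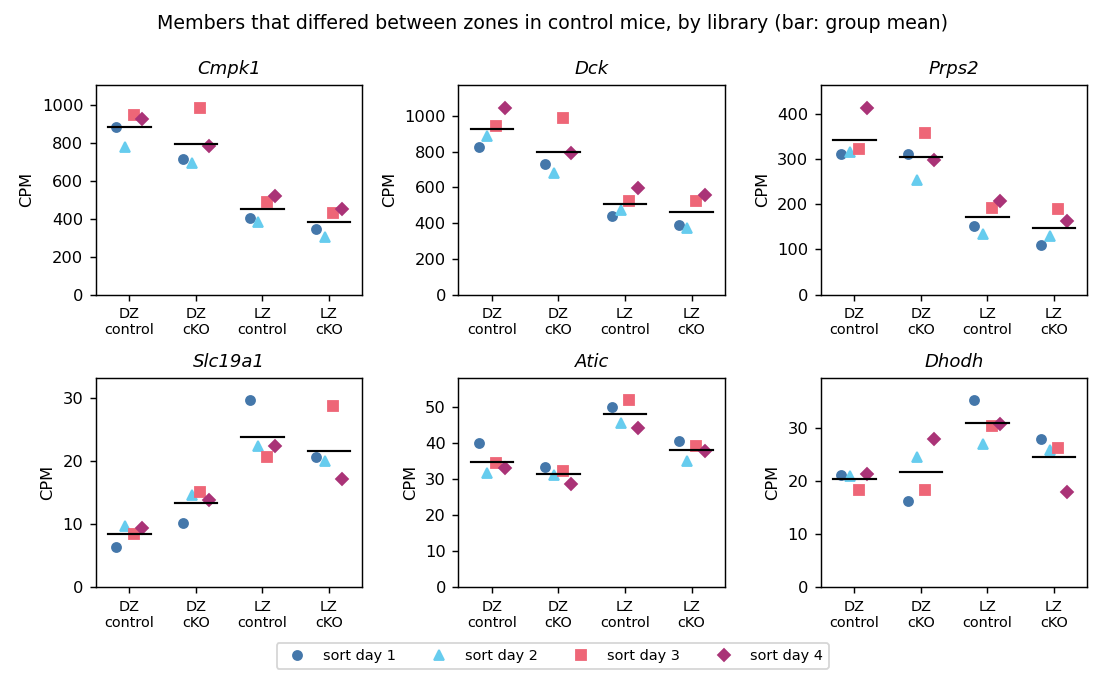
CPM (y axes, from 0) of the 6 members called between zones in control mice, in each of the 16 libraries by group (x axes), with colour and shape for the sort day and a bar for the group mean. Cmpk1, Dck and Prps2 are lower in both LZ groups than in both DZ groups, Slc19a1 is higher in LZ, and its DZ cKO libraries lie above the DZ controls.

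With the day as a block, 11 members were called between zones in control mice (13.7% of all genes) and 16 in cKO mice (17.3%). With the pool as a block the counts were 12 (13.8%) and 15 (17.8%). The 5 that the day block added in control included both cytosolic folate enzymes, higher in LZ: Shmt1, with 38.1, 38.6, 44.2 and 44.3 CPM in DZ against its LZ values (0.62 ± 0.19, edgeR adjusted p = 0.0586, 0.00631 with the block), and Mthfd1 (0.67 ± 0.24, edgeR adjusted p = 0.124, 0.0401 with the block). For both the zones did not overlap. Of their mitochondrial counterparts in control, Shmt2 and Mthfd2 had -0.11 and -0.012 on the log2 scale and Mthfd1l had 0.33, all uncalled. Dut and Adss were lower in control LZ, with main-fit values of -0.32 ± 0.16 and -0.30 ± 0.12 (edgeR adjusted p = 0.285 and 0.169). With the block they had -0.32 and -0.31 and were called (edgeR adjusted p = 0.0209 and 0.0346).

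The members added in cKO by the day block were lower in LZ, apart from Atic. They included both ribonucleotide reductase subunits, Rrm1 and Rrm2. Their main-fit values were -0.45 ± 0.25 and -0.47 ± 0.23 (edgeR adjusted p = 0.308 and 0.247). With the block they were -0.50 and -0.51 (edgeR adjusted p = 0.038 and 0.0193). Rrm2 measured 582, 504, 874 and 602 CPM in DZ cKO libraries, and 614, 529.7, 668 and 688 in DZ control libraries. Dut (-0.52), Mthfd2 (-0.39), Psat1 (-0.50), Phgdh (-0.29), Umps (-0.29), Paics (-0.36) and Impdh1 (-0.35) were others, on the log2 scale. Impdh1 was called in the opposite direction in control with the block. Its blocked values were 0.37 in control and -0.35 in cKO (edgeR adjusted p = 0.0288 and 0.0302). Adss measured 139, 138, 142 and 146 CPM in control DZ and 103, 105, 125 and 126 in control LZ, without overlap. Summed markers also differed by zone: in control, plasma cell genes summed to 3524 to 9469 CPM in DZ and 1848 to 2815 in LZ, and naive B cell genes to 714 to 1001 CPM in DZ and 1738 to 2192 in LZ. Their part in the zone results was not tested.

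The module varied with the sort day. An edgeR test of the 3 day terms called 22 of 37 members, against 14.8% of all genes, namely 7 of 13 purine, 8 of 11 pyrimidine, 3 of 4 shared and 4 of 9 folate and serine genes. On day 3, 36 of 37 members lay above their group means, with a median of 0.21 on the log2 scale. The medians were -0.12 on day 1, -0.15 on day 2 and 0.039 on day 4. The DZ cKO library of day 3 held the group's highest value for 31 members and the LZ cKO library of that day for 24. In the control groups day 4 held the highest value for 18 members in DZ and 16 in LZ, against 10 and 15 on day 3. These counts of highest values, and those of members above their group means, were not taken over all genes. The count of members called for day was 12 without LZ control replicate 2, 11 without LZ cKO replicate 2, 13 without LZ cKO replicate 3, 14 without DZ control replicate 2, 13 without DZ cKO replicate 2, 10 without DZ cKO replicate 3 and 12 without scaling beyond library size. Since days 1 and 2 were male and days 3 and 4 female, day and sex cannot be told apart. A test of sex in place of day called 16 members, all higher on the female days, with the share of all genes not given here. DNA replication genes varied by day too, with 27 of 37 called.

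**Figure D5:**
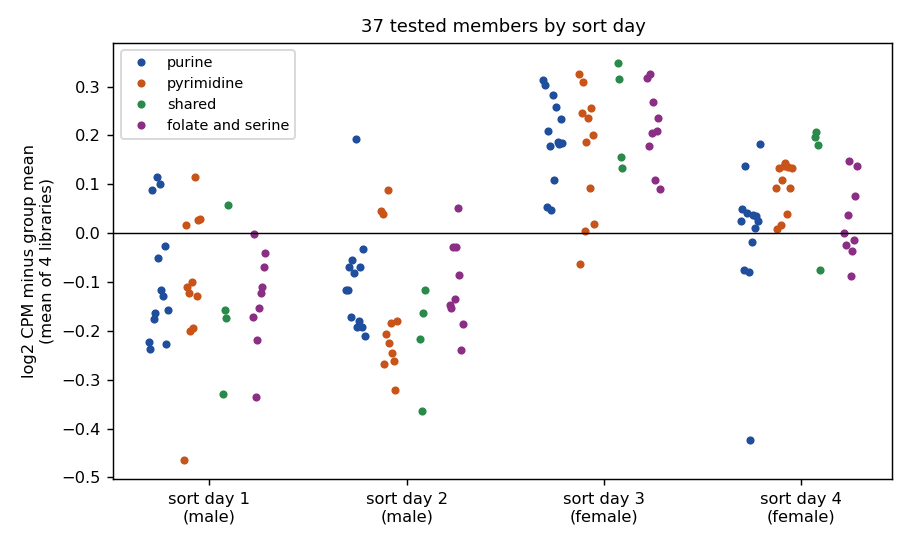
Mean deviation of each of the 37 tested members from its group means in log2 CPM (y axis) on the 4 sort days (x axis, with sex), each point being 1 member averaged over 4 libraries and coloured by branch. Of 37 points, 36 lie above 0 on day 3, against 8 on day 1, 5 on day 2 and 28 on day 4.

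PTBP1 crosslink sites were read in LPS-stimulated splenic B cells, which are not germinal centre cells, from the authors' list called on the summed replicates. Of 36 members with coordinates, 31 held at least 1 site on the sense strand (86.1%), against 51.2% of 9814 tested protein-coding genes. Among the 5978 genes with a mean log2 CPM of at least 4, a background chosen after seeing the data, the share was 68.3%. Gmps had 47 sites, Mthfd1l 44, Hprt 42, Psat1 27, Mthfd1 24 and Tk1 23. That list held no site in Impdh1, Phgdh, Psph, Rrm2 or Umps, although 1 replicate list held 2 in Rrm2, so members called in the genotype comparisons with the block stood both among genes with many sites (Mthfd1l, Psat1) and among genes with none (Impdh1, Phgdh, Umps).

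Site counts depend on gene span and transcript level, and most sites rested on few molecules: the 47 Gmps sites summed to 55 cDNAs. Sites at the same position in at least 2 replicate lists were found in 2 members (5.56%, against 10% of tested protein-coding genes and 14.8% of those with a mean log2 CPM of at least 4). These were Tk1, the thymidine salvage kinase, with 3 such sites in its span (chr11:117815519-117826087), and Mthfd1l with 1 (chr10:3972892-4167081), both in GRCm38. Tk1 had a log2 fold change of -0.15 ± 0.11 in LZ and -0.11 ± 0.11 in DZ and was not called in either.

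Among 23 further purine genes, Adk, adenosine kinase, was the 1 called for genotype in the main fit, higher in cKO by 0.49 ± 0.095 in LZ and 0.52 ± 0.095 in DZ (edgeR adjusted p = 0.0241 and 0.0189). With the day block it was called with Gmpr and Prpsap2 (higher) and Ada and Nt5e (lower) in LZ, and with Adssl1 and Prpsap2 (higher) and Ada (lower) in DZ. The 11 further pyrimidine, 10 deoxynucleotide and 23 folate, glycine and methionine genes tested had 0 calls for genotype in either zone in the main edgeR fit, with LZ medians of 0.15, -0.037 and -0.12. With the day block, Tk2, Cmpk2 and Rrm2b were called higher and Dctpp1 and Nt5m lower in LZ, Tk2 and Cmpk2 were called higher in DZ, and the folate, glycine and methionine genes still held 0 calls. MYC network genes (LZ median 0.26) had 0 of 10 called for genotype in either fit and zone. ATF4 targets outside the module (LZ median -0.14) had 0 of 25 called in the main fit, and with the block Asns was called lower and Pck2 higher in LZ, and Pck2 and Pycr1 higher in DZ. Between zones, in the main fit, 3 of 23 purine genes were lower in control LZ (Ada, Ak3 and Gmpr), and these with Nt5e and Itpa in cKO. Rrm2b, the p53-inducible reductase subunit, and Uprt were lower in LZ in both genotypes, and Tk2, the mitochondrial thymidine kinase, was higher in both. Nme4, Mat2a, Gcsh and Cbs were called higher in LZ in control, Uckl1 and Dctd higher in cKO, and Cth lower in cKO. Of the 10 MYC network genes, Myc and Mxd4 were called higher in LZ in both genotypes. Myc had 1.23 ± 0.16 in control and 0.92 ± 0.16 in cKO (edgeR adjusted p = 0.000183 and 0.00172). Of the 25 ATF4 targets, 1 was called higher and 2 lower in control LZ, and 1 higher and 7 lower in cKO LZ.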

How the data were processed

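Poly(A) mRNA was measured in 16 libraries. Per the labels' protocols, cDNA was made from 2 ng of RNA with SMART-Seq v4, and libraries from 0.5 ng of cDNA, with 8 cycles of PCR. The deposited values are raw counts per Ensembl gene, made with Trim Galore 0.4.2, HISAT2, HTSeq and GRCm38 per the submitters' processing notes; for the aligner's and counter's versions, the annotation release and the strand setting, the sources used here give nothing. The 5 lines that name no gene held 41.4% to 49.8% of entries and were left out. The deposited iCLIP score is a signed cDNA count per site, called at an FDR under 0.05 per the file headers, and 98.43% of sites in tested genes lay on the sense strand.

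Counts were fitted in edgeR 4.0.16 (R 4.3.3; minimum count 10, TMM, robust quasi-likelihood; 16 libraries, 4 group means), with Benjamini-Hochberg adjustment over 15789 genes. The main edgeR fit was also run on simulated counts with less spread than these data and no day or pool effects. That run does not cover the blocked fits. DESeq2 1.42.0 and limma 3.58.1 (voom), other scalings, no filter, fewer samples and blocks were alternatives. Replicate numbers are sort days per the labels, so they pair the samples: same-day deviations correlated at 0.0944 to 0.39, and 22 of 24 library comparisons were best with their own day. Libraries of a group differed beyond sampling noise (chi-square per degree of freedom 22.1 to 173), and each was counted as 1 replicate. In the main fit p-values measure the spread between libraries of a group, each from a different pool. With a block they measure the spread left within sort days or within pools. LZ and DZ libraries of 1 pool share animals, yet the main and day-block fits counted them as independent. No fit modelled the pool for the genotype comparisons.

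Members and lists were chosen with earlier results of these data known. Values per library are given for members called in any comparison in the main or day-block fit (at most 20, genotype first) and for the member with the largest change per branch and zone.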

Additional observations from a re-analysis of the deposited data

Results flagged for a closer look

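In 148 groups of 4 values, 10 single libraries stood apart from the other 3 by Dixon's criterion at the 95% level, where chance flags about 1 in 20 groups. Of these, 7 were replicate 3 of a cKO group: DZ cKO replicate 3 was high for Ppat (105.5 CPM), Gart (164 CPM), Paics (415 CPM), Hprt (379 CPM), Cad (74.0 CPM) and Shmt1 (48.4 CPM), and LZ cKO replicate 3 for Gart (182 CPM). The others were Prps2 at 415 CPM in DZ control replicate 4, Dhodh at 18.4 CPM in DZ control replicate 3 and Tk1 at 96.0 CPM in LZ cKO replicate 2.

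The zone effect of 2 members had opposite signs in the genotypes on all 4 sort days. Impdh1 was higher in LZ by 0.35 in control and had -0.35 in cKO on the log2 scale, and Phgdh had 0.076 in control and -0.29 in cKO. The interaction was tested in edgeR and was called for neither (adjusted p = 0.9998 in the main fit for both; 0.418 and 0.826 with the day block).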

How the results depend on the processing

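Fold changes of members called in the main or day-block fits kept their sign under all alternatives run, and Cmpk1, Dck and Prps2 stayed past the threshold between zones in all 36 alternatives in both genotypes. Counts of called members moved with the model, and shares of all genes are not given beside them here. In LZ cKO against control, 0 became 11 with the replicate block by sort day and 3 with DESeq2, and leaving out 1 library gave 0 to 1 (1 without LZ cKO replicate 3). With the block and 1 sort day left out, added after seeing the data, it was 3, 0, 8 and 3 for days 1 to 4. In DZ cKO against control, 0 became 1 with the block, 2 with DESeq2 and 0 on leaving out any library, and 1 with the block on leaving out any day. Between zones in control, 6 became 11 with the day block, 12 with the pool block, 3 in females only and 5 to 8 without 1 library. Between zones in cKO, 5 became 16 with the day block, 15 with the pool block, 8 with DESeq2, 3 with only the groups compared, 3 in females only, 3 to 6 without 1 library and 3 to 4 without 1 day. With the block and without sort day 1, 2, 3 or 4 it was 8, 5, 9 and 13. For sort days, 22 became 12 with no scaling beyond library size and 10 to 23 without 1 library. The interaction stayed at 0 in all 35 alternatives. The median of all members in LZ cKO against control ranged from -0.35 to -0.15 and kept its sign in each branch. Medians near 0 changed sign elsewhere: for folate and serine and shared genes in DZ cKO against control, for purine genes in the interaction, and for pyrimidine and purine genes between control zones. For all members between control zones it ranged from -0.063 to 0.069 around -0.012. The causes were not tested. Tested members had at least 202 counts in every library, and Nme2 lay below the filter.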
